A study of Mus musculus with 6 samples.

Results

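The genes described here make triglycerides, glycerophospholipids and the fatty acids they carry. They are 34 genes, named by symbol and ordered by pathway step: 5 for fatty acid synthesis and its regulation, 7 for elongation and desaturation, 4 acyl-CoA synthetases, 6 acyltransferases that build phosphatidate, 5 for phosphatidate phosphatases and the last step of triglyceride synthesis, and 7 for the choline and ethanolamine branch. Of the 34, 33 had a probe set annotated to them alone, of 18193 genes so annotated on the array, and each was read from the one with the highest mean log2 signal. No such probe set for Acsl1 was in the table used here, so Acsl1 was not analysed here. The cells were HL-1, an established cardiomyocyte line grown from a mouse atrial tumour, so all samples are 1 immortal line and not heart tissue. Confluent cultures were kept for 8 hours either at 1% oxygen (hypoxia, 3 arrays) or at 21% oxygen (normoxia, 3 arrays), with no other treatment named in the labels. The labels do not say whether the 3 samples of a group were separate cultures, so p-values speak for the scatter of these 6 arrays, which may be only technical.

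Cells make palmitate from citrate: ATP citrate lyase frees acetyl-CoA, acetyl-CoA carboxylase makes malonyl-CoA from it and fatty acid synthase joins the units. Elongases and desaturases lengthen and unsaturate the product, acyl-CoA synthetases activate it, and acyltransferases place it on a glycerol backbone to give phosphatidate, from which diacylglycerol, triglyceride and the membrane phospholipids are made. Many of these genes are targets of the sterol-sensitive transcription factors SREBP. Heart muscle takes up most of its fatty acids from blood, and cells short of oxygen commonly store fatty acids as triglyceride.

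The values were MAS5 signals on a linear scale, 1 per probe set and array. Array medians ran from 15 to 19. The 2 genes used to check the labels were far apart between the groups. Slc2a1, the glucose transporter GLUT1, had signals of 2624, 1978 and 2216 in hypoxia and 540, 603 and 470.2 in normoxia, and rose by the limma test described with the results (log2 fold change 2.08, adjusted p = 0.00038). Ak4, a mitochondrial adenylate kinase, had 641, 675 and 585 against 23.2, 63.2 and 28.9 and rose as well (4.18, adjusted p = 0.000659). All 8 cardiomyocyte markers were above the filter on low signals, with summed signals of 29738 to 32136 in hypoxia and 29858 to 31708 in normoxia. Of 4 adipocyte markers with a probe set, 1 was above the filter (Fabp4, 8.80 to 30.0), and the defining marker Adipoq had signals of 0.50 to 8.40. The summed adipocyte signal was 15.8 to 37.4 in hypoxia and 23.7 to 48.8 in normoxia. Hepatocyte markers were above the filter in 0 of 3 cases, with sums of 17.1 to 35.3 in hypoxia and 20.9 to 44.8 in normoxia. Of 4 smooth muscle markers, 3 were above it, with summed signals of 12106 to 15066 in hypoxia and 11312 to 13212 in normoxia. These were Acta2 (signals of 8115 to 10572), Tagln (2898 to 4753) and Cnn1 (249 to 462). Myh11 was below the filter at 0.70 to 10.9. Fibroblast markers were above the filter in 3 of 5 cases (sums of 115 to 225 in hypoxia and 126 to 138 in normoxia). The count was 1 of 4 for endothelial markers (70.9 to 124 and 80.4 to 96.7). Kdr had 49.3 to 102.5 and Pecam1 1.10 to 14.0. For macrophage markers it was 3 of 4 (89 to 123 and 69.4 to 114). Cd68 had 16.5 to 49.2, Csf1r 29.8 to 70.3, Adgre1 15.3 to 27.5 and Ptprc 1.10 to 6.90. Of the markers of these 7 cell types, 0 passed the test between the groups. The groups did not overlap for Fabp4 (lower in hypoxia, log2 fold change -0.97, adjusted p = 0.426). Nor did they for Tagln and Cnn1 of smooth muscle (0.37 and 0.49, adjusted p = 0.283 and 0.347). Cd68 of macrophages did not overlap either (1.14, adjusted p = 0.157). The part of these markers in the results was not tested. Of the cardiomyocyte markers, Nppa was higher (0.76, adjusted p = 0.24) and Myl4 lower (-0.12, adjusted p = 0.639) in all hypoxia arrays, also without passing. Over all genes tested, the hypoxia arrays all lay above the normoxia arrays for 8.16% and below them for 9.91%.

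Before the groups are compared, the spread between arrays of one group matters for these genes. Hypoxia replicate 3 and normoxia replicate 1 had low signals for many of them. Hypoxia replicate 3 was the lowest of its group for 19 of the 31 genes that passed the filter (61.3%, against 37.5% of all genes tested), and normoxia replicate 1 for 23 of 31 (74.2%, against 38.4%). The median deviation of the 31 genes from the group mean was -0.16 on the log2 scale in each of these arrays. Deviations of the 2 arrays correlated with r = 0.85 across the 31 genes and r = 0.32 across all 22518 probe sets tested. This describes genes that share the arrays, and the pair was the highest of those across groups. Across the 31 genes, the other pairs ran from -0.76 (hypoxia 3 with normoxia 3) to 0.64 (hypoxia 1 with normoxia 3). Deviations from the mean of so few arrays depend on each other. Srebf1, which encodes the SREBP that drives fatty acid synthesis, is an example of low signals in these 2 arrays. Its signals were 1111, 762 and 382 in hypoxia and 482 (replicate 1), 974 and 1019 in normoxia, so the spread within each group was far wider than the difference between them. Genes outside the pathway also differed in these arrays. Nppa, the atrial natriuretic peptide, had its highest signal of each group there (1608 in hypoxia, 1105 in normoxia, against 585 to 1166 in the other arrays). The part of this spread in the results was not tested, and values without one of these arrays are given for some of the genes that it moves.

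**Figure D1:**
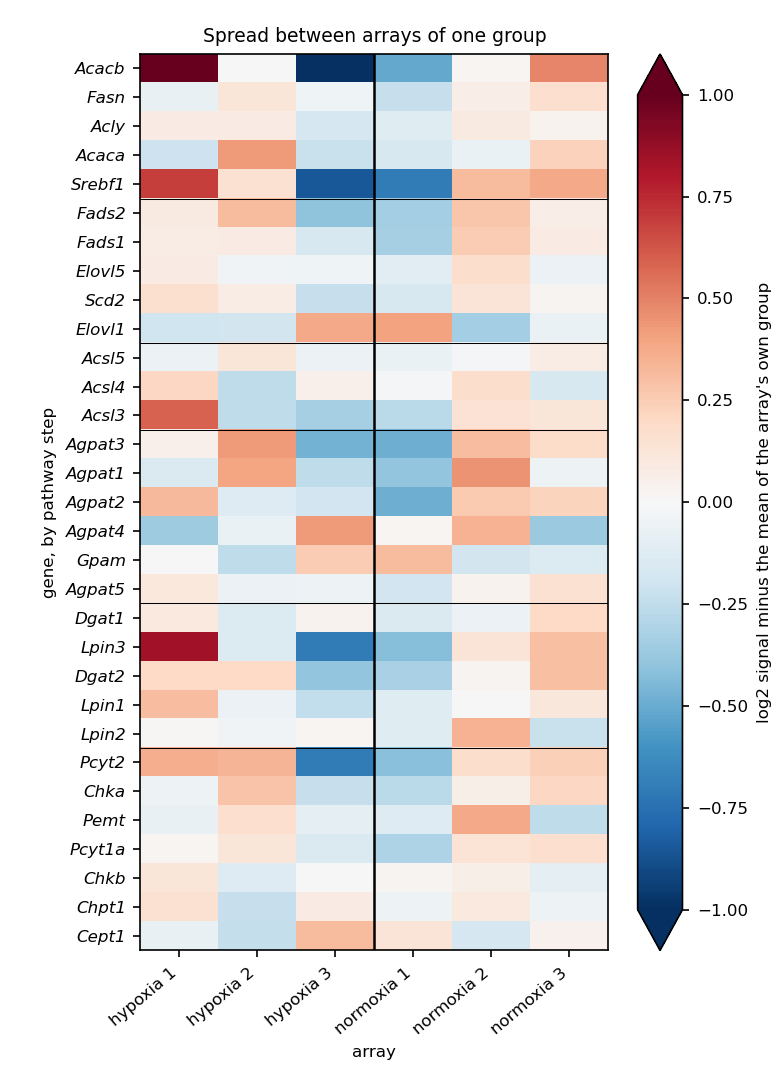
Deviation of each of the 31 tested genes (rows, by pathway step) in each array (columns) from the mean of the array's own group, on the log2 scale. Hypoxia 3 and normoxia 1 are blue, that is lower than their group, for 19 and 23 genes as the lowest array. Elovl1, Gpam and Cept1 are red in both, as the highest array of each group.

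In the comparison of hypoxia with normoxia, 0 of the 31 genes that passed the filter changed by the limma test (adjusted p under 0.05 over all probe sets tested), where 0.75% of all 11332 genes were called, 0.662% higher and 0.0882% lower. Among the individual values, most fold changes lay below 0. They did so for 24 of 31 genes, or 77.4%, against 55.6% of all genes, with a median log2 fold change of -0.21 against -0.04. After each array was centred on its median, which moved the median of all genes to 0.07 and their share below 0 to 40.1%, 23 of the 31 stayed below 0 with a median of -0.10. At an unadjusted p under 0.05, which 12.4% of all genes reached, 7 genes were lower (22.6%, against 6.3% of all genes) and 1 was higher (3.23%, against 6.13%). All 3 hypoxia arrays lay below all 3 normoxia arrays for 6 genes (19.4%, against 9.91%) and above them for 2 (6.45%, against 8.16%). The 6 were Fasn, Acly, Fads1, Elovl5, Acsl5 and Dgat1, and the 2 were Agpat5 and Lpin2. The smallest adjusted p was that of Fasn (0.0603). The smallest p of an exact permutation test on 3 against 3 arrays is 0.1, so p-values below it rest on limma's model. In bulk RNA, a smaller share of cells that make a transcript and less of it per cell cannot be told apart.

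**Figure D2:**
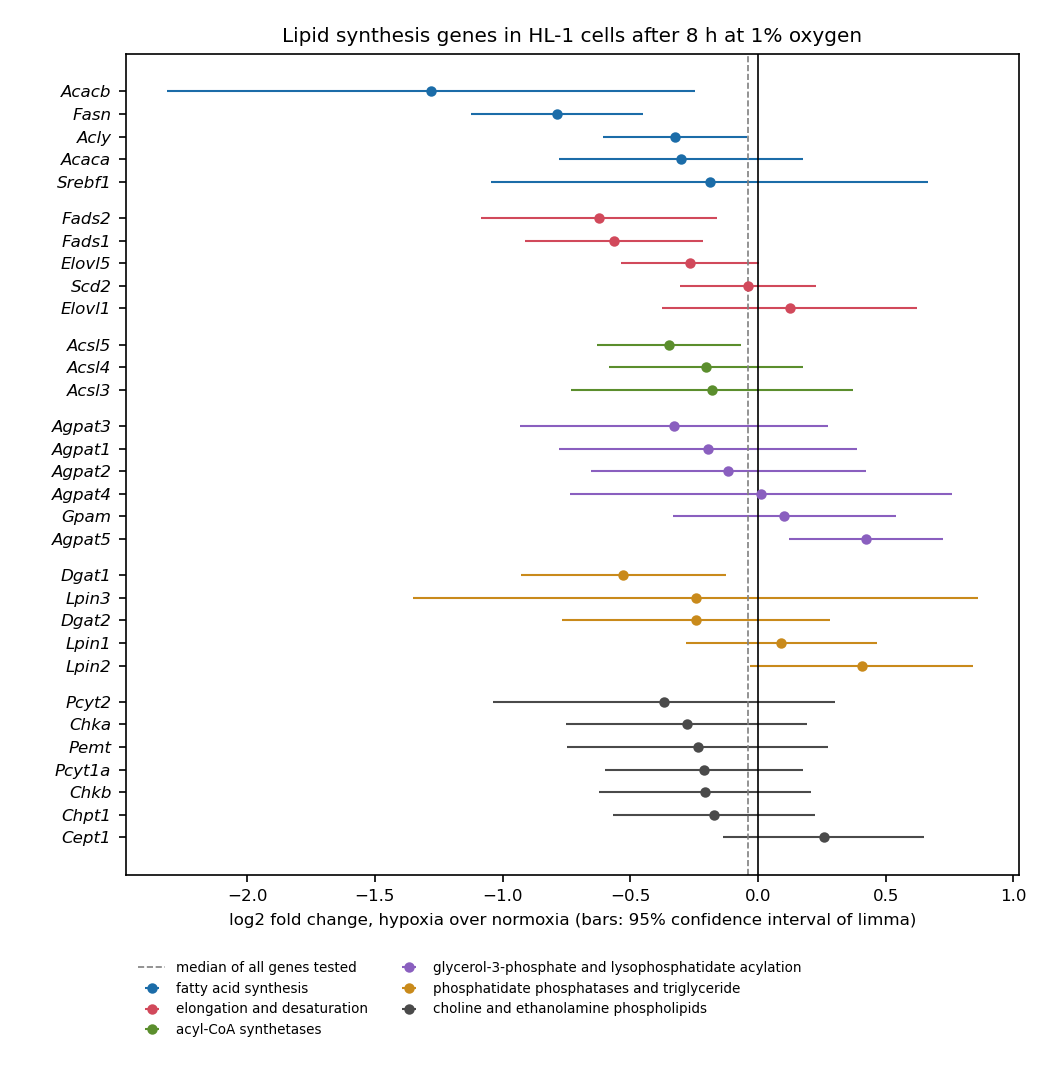
Log2 fold change, hypoxia over normoxia, of the 31 tested genes with its 95% confidence interval from limma, grouped and coloured by pathway step; the dashed line is the median of all genes tested (-0.04). The intervals of Fasn (-1.12 to -0.45), Fads1, Fads2, Acacb, Dgat1, Acsl5 and Acly lie below 0 and that of Agpat5 above it before adjustment for multiple tests; 0 genes passed after it.

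All 5 genes of fatty acid synthesis and its regulation had fold changes below 0, with a median of -0.33, and 0 passed the test. Fasn, the synthase that assembles palmitate, had signals of 293, 336 and 299.9 in hypoxia and 453, 557 and 600.2 in normoxia. The groups did not overlap, and normoxia replicate 1 was the normoxic array nearest to hypoxia. The means were 309.9 ± 23.3 and 537 ± 75.5 (SD, n = 3 per group here and at every mean), a log2 fold change of -0.79 (SE 0.15, 95% confidence interval -1.12 to -0.45), or 58.0% of the normoxic level (adjusted p = 0.0603). Acly, the ATP citrate lyase that supplies acetyl-CoA, had signals of 797, 794 and 670.0 in hypoxia against 866, 1000.1 and 964. Its groups did not overlap either, at a log2 value of -0.33 (SE 0.13, adjusted p = 0.387). Its 3 other probe sets above the filter had -0.29, -0.42 and -0.13, each with overlapping groups. Acacb, the acetyl-CoA carboxylase of the outer mitochondrial membrane whose malonyl-CoA restrains fatty acid oxidation, had the lowest log2 fold change of all 31 (-1.28, SE 0.46, adjusted p = 0.35). Its signals were low and scattered, 62.3, 30.9 and 15.4 against 52.9, 76.4 and 105, and hypoxia replicate 1 lay above normoxia replicate 1. Without hypoxia replicate 3 the value was -0.78, and with any 1 array left out it lay between -1.79 and -0.78. Acaca, the cytosolic acetyl-CoA carboxylase, had a value of -0.30 on the log2 scale (adjusted p = 0.647), with 125, 194 and 124 against 160, 170 and 208. Without hypoxia replicate 3 it was -0.19. On its dimmer probe set the value was -0.80 (adjusted p = 0.297) and the groups did not overlap. Srebf1 had -0.19 with an SE of 0.38 (adjusted p = 0.891). Its value was 0.23 without hypoxia replicate 3 and -0.54 without normoxia replicate 1.

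The promoter window of Fasn is shown because this gene had the smallest p of the 31. It is the 250 bases before the annotated start, from RefSeq in build GRCm38.p6, chr11:120824548-120824797 on the minus strand, written 5′ to 3′. Capitals mark matches on either strand to GCGTG, a core of the site bound by hypoxia-inducible factors (HIF), and to CCAAT, the box bound by NF-Y.
Fasn: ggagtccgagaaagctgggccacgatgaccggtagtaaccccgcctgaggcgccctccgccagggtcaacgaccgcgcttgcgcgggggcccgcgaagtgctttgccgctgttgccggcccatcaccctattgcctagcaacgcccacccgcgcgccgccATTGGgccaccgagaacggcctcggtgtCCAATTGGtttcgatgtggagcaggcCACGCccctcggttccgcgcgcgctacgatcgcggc
The GCGTG match begins 36 bases before the start and the 3 CCAAT matches begin 90, 62 and 59 bases before it, 2 of them overlapping. GCGTG occurs in 28.1% and CCAAT in 33.8% of 32807 windows of this length. No match to ACGTG, to CACGTG, which contains it, or to TCACNCCAC, a sterol regulatory element, lies in these letters.

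Among elongases and desaturases, the 2 enzymes that make highly unsaturated fatty acids had the lowest values. Fads1, the delta-5 desaturase, had signals of 1289, 1293 and 1094 in hypoxia and 1434, 2154 and 1908 in normoxia. The groups did not overlap, and normoxia replicate 1 was again the nearest. Its log2 fold change was -0.56 (SE 0.16, adjusted p = 0.207), from 1832 ± 366 to 1225 ± 114. Fads2, the delta-6 desaturase that acts before Fads1, had 862, 1013 and 613 against 988, 1512 and 1307. Here hypoxia replicate 2 lay above normoxia replicate 1, at a log2 value of -0.62 (SE 0.21, adjusted p = 0.299). Of its other probe sets, one had -0.47 with groups that did not overlap (adjusted p = 0.322) and the other -0.17. The second probe set of Fads1, at signals of 46.7 to 66.3, had -0.25. Elovl5, the elongase of polyunsaturated fatty acids, had 1002, 919 and 915 against 1049, 1280.1 and 1091, again without overlap, at -0.27 (SE 0.12, adjusted p = 0.464). Its second probe set had overlapping groups and -0.10 (adjusted p = 0.822). Scd2, a stearoyl-CoA desaturase that makes oleate, had signals of 6580.3, 6202 and 5014 against 5432, 6606 and 6180.4. Its groups overlapped, with a log2 fold change of -0.04 (0.072 after median centring) and an interval of -0.30 to 0.23. Elovl1, an elongase of very long saturated chains, had 0.12 on an interval of -0.38 to 0.62, and its 3 other probe sets ranged from -0.20 to 0.10. Scd1, the desaturase of liver and fat, and Elovl6, the elongase of palmitate, did not pass the filter and were not tested. Signals of Scd1 lay between 5.50 and 18.8 and those of Elovl6 between 0.60 and 10.5, in both cases with overlapping groups.

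Fads2 is the other gene with a promoter window in the RefSeq table that passed the test under at least 1 alternative described further on. For Fads2 this was only 1 fit, added after the data were seen. Its window is chr19:10101504-10101753 on the minus strand of GRCm38.p6, with the same 5 motifs searched on both strands.
Fads2: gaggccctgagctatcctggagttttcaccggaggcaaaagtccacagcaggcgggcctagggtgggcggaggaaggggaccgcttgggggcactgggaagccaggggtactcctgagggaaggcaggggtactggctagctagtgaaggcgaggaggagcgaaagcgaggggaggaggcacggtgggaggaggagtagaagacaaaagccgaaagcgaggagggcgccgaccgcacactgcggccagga
It has no capitals, since none of the 5 motifs has a match in these letters. Acacb, Acly and Acsl5 also had an unadjusted p under 0.05 by limma and a window, which is not shown. The window of Acacb has ACGTG and GCGTG, that of Acly ACGTG and that of Acsl5 GCGTG. Of the 34 genes, 27 had at least 1 window in the table, and 18 of these had ACGTG or GCGTG in 1 or more of their windows. One of these HIF cores occurs in 38.6% of all windows, but several of the genes have more than 1 window. The 27 genes had 41 windows, so counts by gene cannot be compared with shares of windows. TCACNCCAC was found for 2 of the 27 genes, Acsl1 and Pcyt1a, and in 1.06% of all windows.

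**Figure D3:**
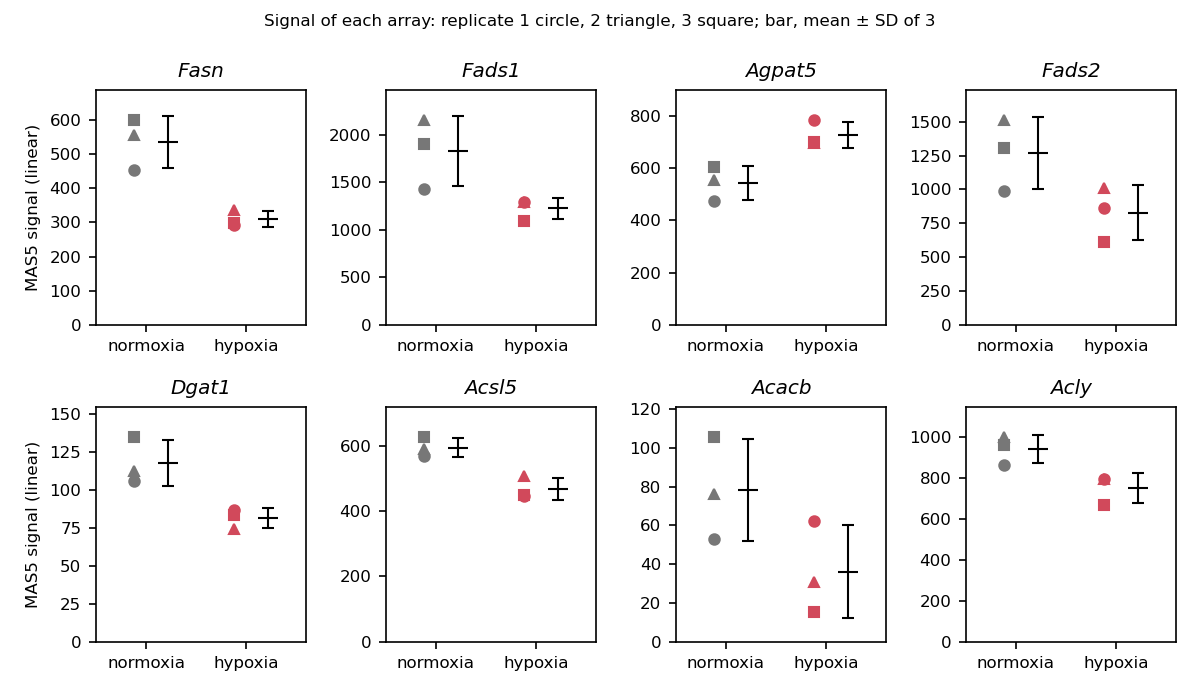
MAS5 signal (linear axis from 0) of each array for the 8 genes with an unadjusted p under 0.05, normoxia in grey and hypoxia in red, with the mean and SD of 3 arrays beside the points. The groups do not overlap for Fasn, Fads1, Agpat5, Dgat1, Acsl5 and Acly, and overlap for Fads2 and Acacb.

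The 3 acyl-CoA synthetases measured, which activate fatty acids for use, had log2 fold changes of -0.18 to -0.35, and 0 passed. Acsl5, the form tied to triglyceride synthesis in liver and gut, had signals of 447, 506 and 449 in hypoxia and 568, 589 and 625 in normoxia. Its groups did not overlap, at 78.6% of the normoxic level (log2 fold change -0.35, SE 0.12, adjusted p = 0.35). Acsl4, which prefers arachidonate, had -0.20 on its brightest probe set (adjusted p = 0.7). Its other probe sets gave -0.30 and 0.28, so their signs differed. Acsl3, found at the endoplasmic reticulum and on lipid droplets, had -0.18. Its hypoxia replicate 1 stood at 384 while the other hypoxia arrays had 214 and 203, and normoxia lay in between at 240 to 320.1. Its value was -0.014 without hypoxia replicate 3 and -0.47 without hypoxia replicate 1.

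The acyltransferases that build phosphatidate held the gene with the largest positive value. Agpat5, a lysophosphatidate acyltransferase of mitochondria and the endoplasmic reticulum, had signals of 784, 698 and 702 in hypoxia and 476, 555 and 604 in normoxia. All hypoxia arrays lay above all normoxia arrays, with a value of 0.42 on the log2 scale (SE 0.13, interval 0.12 to 0.72, adjusted p = 0.277). A second probe set had 368, 316 and 438 against 286, 209.8 and 254, also without overlap, at 0.58 (adjusted p = 0.25). Gpam, the mitochondrial acyltransferase that starts the pathway from glycerol-3-phosphate, had 0.10, with 220, 185 and 262 against 254, 181 and 187. Agpat2, the form whose loss causes lipodystrophy, had 157, 114 and 109.9 against 97.1, 163 and 159. Its groups overlapped, with a log2 fold change of -0.12 and an interval of -0.66 to 0.42. Agpat1 and Agpat3, further acyltransferases of this step, had -0.20 and -0.33, with adjusted p-values of 0.82 and 0.693. Without hypoxia replicate 3 they had -0.070 and -0.093, and without normoxia replicate 1 -0.39 and -0.58. All 6 of their probe sets above the filter had negative values, down to -0.67. Agpat4 had a log2 fold change of 0.01 at signals of 20.9 to 36.6.

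Next come the lipins, which remove the phosphate from phosphatidate, and the acyltransferases that complete triglyceride. Dgat1, one of the 2 enzymes that add the last acyl chain, had signals of 86.8, 74.0 and 83.2 in hypoxia and 106, 112 and 134 in normoxia. Its groups did not overlap, with a value of -0.53 on the log2 scale (SE 0.18, adjusted p = 0.314), or 69.4% of the normoxic level. Dgat2, the unrelated enzyme of the same reaction, had 109, 108 and 72.0 against 89.2, 114 and 138. Its probe sets had opposite signs, -0.24 and 0.30 (adjusted p = 0.742 and 0.758), and the first was -0.045 without hypoxia replicate 3. Lpin1, a phosphatase that also acts as a transcriptional coactivator, had 499, 387 and 341 against 349, 381 and 410.2. Its groups overlapped, at 0.09 with an interval of -0.28 to 0.46. Lpin2, another phosphatidate phosphatase, had 117, 113 and 118 against 80.2, 111 and 75.1. The hypoxia arrays lay above all normoxia arrays, though 113 and 111 were close, at 0.41 (SE 0.19, adjusted p = 0.494), and its 2 other tested probe sets gave 0.08 and 0.24 with overlap. Lpin3 had -0.24 with an SE of 0.49, at signals of 9.0 to 26.1.

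In the choline and ethanolamine branch the groups overlapped on the brightest probe set of all 7 genes (for Chkb they met at 67.7), and adjusted p-values lay between 0.637 and 0.756. Chka and Chkb, the kinases that phosphorylate choline, had log2 fold changes of -0.28 (-0.16 without hypoxia replicate 3) and -0.21. Pcyt1a, the CTP-dependent enzyme that sets the rate of phosphatidylcholine synthesis, had 241, 258 and 215 against 222, 302 and 309. Its 4 probe sets had the same sign, between -0.17 and -0.24, and the brightest -0.14 without hypoxia replicate 3 and -0.36 without normoxia replicate 1. Pcyt2, its counterpart for ethanolamine, had 181, 178 and 86.8 against 136, 205 and 215 and a log2 fold change of -0.37 (SE 0.30). The lowest arrays of the 2 groups were again hypoxia replicate 3 and normoxia replicate 1, without which the value was -0.019 and -0.58, respectively. Chpt1, the cholinephosphotransferase, had -0.17 on its brightest probe set and between -0.65 and 0.13 on the others. On the one at -0.65 the groups did not overlap, with 30.9, 20.8 and 30.4 against 40.8, 54.4 and 34.1 (adjusted p = 0.464). Cept1, which serves both branches, had 314, 280.2 and 412 against 303, 247 and 285, at 0.26 with an interval of -0.14 to 0.65, and 0.099 without hypoxia replicate 3. Pemt, which methylates phosphatidylethanolamine and is mainly a liver enzyme, had -0.24 at signals of 51.7 to 84.4.

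Beyond the probe sets that represent them, 18 of the genes had 33 further probe sets above the filter. Of these, 28 had the sign of the representative one and 5 the opposite sign, and 0 passed the test (smallest adjusted p = 0.25). They are read from the same RNA on the same arrays and are no further replicates.

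The processing moved 4 of the 31 genes across the threshold in at least 1 of 21 alternatives, 2 of them chosen after seeing the data. Fasn passed under a stricter filter at the 75th percentile (limma's adjusted p = 0.0468), with array weights (0.0098), when all probe sets of a gene were averaged before the fit (0.0432) and without normoxia replicate 1 (0.0298). This gene has only 1 probe set, so with that filter or that averaging its log2 fold change was still -0.79. Fasn did not pass without any other single array (0.113 to 0.32) or after centring each array on its median (0.15). Over all alternatives its log2 fold change ranged from -0.90 to -0.67 and its adjusted p from 0.00331 to 0.32. Fads1 passed with array weights (0.0482) and without normoxia replicate 1 (0.0371), and had adjusted p-values up to 0.595 elsewhere. With hypoxia replicate 3 and normoxia replicate 1 both left out, Fasn (adjusted p = 0.0132) and Fads1 (0.0181) passed and Fads2 had 0.0548, while Agpat5 did not pass. Fads2 (adjusted p = 0.00229) and Agpat5 (0.0455) passed only with the main direction of spread within groups as a covariate, a fit that takes up part of the spread by its construction and in which Fasn (0.00331) and Fads1 (0.00548) also passed. The other 27 genes passed in none of the alternatives in which they were tested, 19 to 21 for each.

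**Figure D4:**
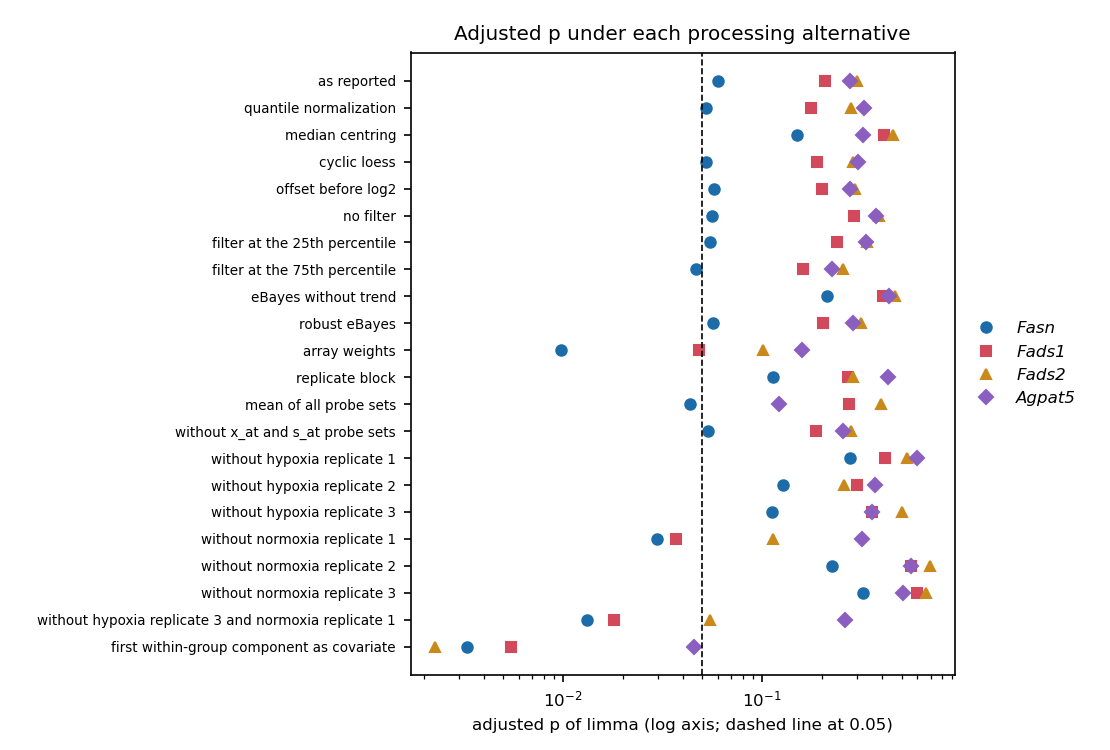
Adjusted p of limma (log axis, dashed line at 0.05) for Fasn, Fads1, Fads2 and Agpat5 in the reported fit (top line) and under each of 21 alternatives. Fasn lies at 0.0603 in the reported fit, and moves to 0.0298 without normoxia replicate 1 and to 0.32 without normoxia replicate 3.

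A list of 63 other genes of the same pathways was examined the same way, and 60 had a probe set of their own, of which 51 passed the filter. Of the 51, 1 was lower in hypoxia by the test, where 0.0882% of all genes were, and 0 were higher. At an unadjusted p under 0.05, 8 were lower (15.7%, against 6.3% of all genes) and 4 higher (7.84%, against 6.13%). Their median log2 fold change was -0.09, with 33 below 0 (64.7%, against 55.6%). The hypoxia arrays all lay below the normoxia arrays for 9 genes (17.6%, against 9.91%) and above them for 5 (9.80%, against 8.16%). Fitm1, a protein of the endoplasmic reticulum that helps lipid droplets form, was the one that fell. Its signals were 167, 165 and 165 in hypoxia and 313, 295 and 321 in normoxia, at 53.5% of the normoxic level (log2 fold change -0.90, SE 0.14, adjusted p = 0.0202). It failed without hypoxia replicate 1 or 2 or normoxia replicate 2 or 3 (adjusted p up to 0.155), after median centring (0.0877), without the variance trend (0.102) and with the replicate number as a block (0.0844), and passed in the other 14 of 21 alternatives. Mboat2, a lysophospholipid acyltransferase, had 352, 310 and 310.2 against 190, 223 and 160.4 and did not pass (0.77, SE 0.17, adjusted p = 0.0911). Gpd1l, a relative of glycerol-3-phosphate dehydrogenase, had 169, 201 and 194 against 273, 306 and 325 (-0.68, SE 0.15, adjusted p = 0.101). Tecr, the reductase of the elongation cycle, had 1110, 1056 and 937 against 1324, 1596 and 1768 (-0.59, SE 0.13, adjusted p = 0.113). The brightest of the list, Hacd1, a dehydratase of that cycle known from muscle, had 2320, 1813 and 2188 against 1605, 1343 and 1368 (0.55, SE 0.13, adjusted p = 0.121). All 4 of these had groups that did not overlap. Fads3, a desaturase encoded beside Fads2 and near Fads1 in the RefSeq annotation, was chosen after its values were seen. It had 300, 391 and 248 against 187, 200 and 223, a positive log2 fold change of 0.60 where Fads1 and Fads2 had negative ones (SE 0.19, adjusted p = 0.262), and the difference between these genes was not tested.

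**Figure D5:**
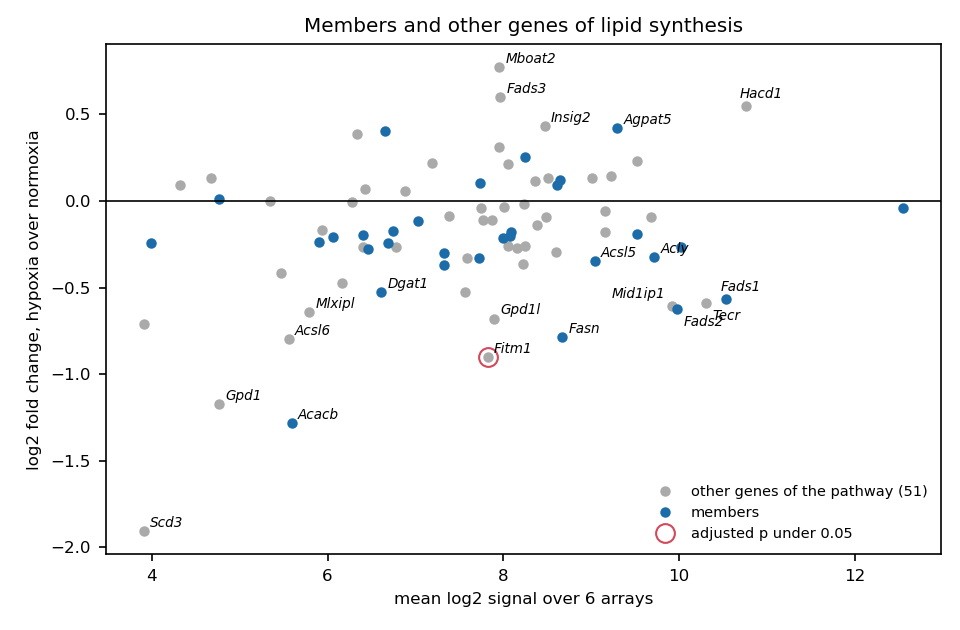
Log2 fold change, hypoxia over normoxia, against mean log2 signal over the 6 arrays, for the 31 genes (blue) and 51 other tested genes of lipid synthesis (grey); genes with an unadjusted p under 0.05 are named. Fitm1 at -0.90 is ringed as the 1 gene that passed the test, and Mboat2, Fads3, Hacd1, Insig2 and Agpat5 are the named genes above 0.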

How the data were processed

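RNA from 6 HL-1 samples, 3 kept in hypoxia and 3 in normoxia, was hybridised to Affymetrix mouse arrays of 1 colour. Each deposited value is a probe set's linear intensity from MAS5, per the submitters' processing notes. The version and settings of MAS5 are not known here. There were 45037 probe sets per array. With 2% trimmed at each end, mean signals were 99.5 on all 6 arrays, so no further scaling was applied. Identical values were found in 0 of 15 array pairs. The number of arrays limits the precision, and MAS5 signals vary widely near background.

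Before taking log2, 10 zeros were replaced by the smallest positive signal (0.1). Probe sets with a mean log2 signal above the median of all probe sets were kept, equal to a geometric mean signal of 14.1, which left 22518 probe sets and 11332 genes. The groups were compared in limma 3.58.1 (R 4.3.3), using lmFit and eBayes with trend, two-sided and without covariates, with Benjamini-Hochberg adjustment over all probe sets kept and a threshold of 0.05. Every fold change is on a log2 scale, hypoxia over normoxia, with limma's SE. The procedure was tested on simulated data.

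Names came from a platform annotation dated 2016, in which 34945 probe sets had 1 symbol, 932 several and 9160 none. Genes were represented by the 1-symbol probe set with the highest mean log2 signal. Values in every array are given for genes with an unadjusted p under 0.05 and for the brightest of each step, and for further genes chosen after their values were seen. Of the other pathway genes, those that passed, the 3 with the smallest adjusted p among the rest and the brightest are named. Alternatives covered normalization, filters, the offset, eBayes options, array weights, the replicate block, the choice of probe set and each array left out. Promoter windows came from RefSeq (GRCm38.p6); the motif search was chosen after seeing the data. The genes and lists were chosen with earlier results of these data known.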

Additional observations from a re-analysis of the deposited data

How the results depend on the processing

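The counts of called genes moved more than the fold changes. Of all genes, 75 were higher and 10 lower as reported. The counts were 113 and 4 after median centring, 7 and 2 without the variance trend, 197 and 80 with array weights, and 17 lower with the mean of all probe sets. Leaving out 1 array gave 22 to 101 higher and 1 to 27 lower. With hypoxia replicate 3 and normoxia replicate 1 both left out they were 183 and 90, and with the first within-group component as covariate 357 and 295, both added after seeing the data. Lipid synthesis genes called lower numbered 0 as reported, 1 with the filter at the 75th percentile or the mean of all probe sets, 2 with array weights, 0 to 2 with 1 array left out, 2 without both named arrays and 3 with the component, which also called 1 higher. Of the other pathway genes, 1 was lower as reported, and 0 after median centring or without the trend. With array weights 5 were lower and 2 higher, with 1 array left out 0 to 2 lower, without both arrays 4 and 1, and with the component 6 and 3. The median log2 fold change of the 31 genes lay between -0.36 (without normoxia replicate 1) and -0.10 (median centring), and with 1 array left out between -0.36 and -0.14. Median centring moved the median of all genes from -0.04 to 0.07, with 23 of 31 genes still below 0, against 24 as reported.

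The sign held for 21 of the 31 genes in each alternative that tested them, Fasn, Fads1, Fads2, Agpat5, Acly, Acacb, Acsl5 and Dgat1 among them. A stricter filter, or leaving out x_at and s_at probe sets, removed some genes, so that 8 genes had 19 or 20 of the 21 alternatives, Acacb and Dgat1 among these. It turned for 10 genes with values near 0 or wide spread, none of which passed in any fit. Scd2 had 0.072 after median centring, Elovl1 -0.024 and Dgat2 0.030 with the mean of all probe sets, Elovl1 -0.20 without x_at and s_at probe sets, and Agpat4 -0.19 without hypoxia replicate 3 and normoxia replicate 1. With 1 array left out the ranges were -0.54 to 0.23 for Srebf1, -0.067 to 0.33 for Elovl1, -0.12 to 0.078 for Scd2, -0.021 to 0.26 for Gpam, -0.39 to 0.027 for Agpat1, -0.36 to 0.015 for Agpat2, -0.20 to 0.19 for Agpat4, -0.062 to 0.21 for Lpin1 and -0.66 to 0.11 for Lpin3. The causes were not tested. Deviations of arrays with the same replicate number had correlations across probe sets of -0.08, 0.21 and -0.14. Deviations from the mean of so few arrays depend on each other, so these values cannot decide whether the numbers mark pairs. With the replicate block, 61 genes were higher and 2 lower, 0 lipid synthesis genes were called, and 0 other pathway genes were lower.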
